A study of Mus musculus with 52 samples.

Results

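Cohesin sites that were listed in wild-type cells but in neither of the SmcHD1-deficient genotypes were examined in female mouse embryonic fibroblasts (MEFs). A site is a ChIP-seq peak of Rad21, the kleisin subunit that closes the cohesin ring. The sites were chosen by overlap of peak lists: a peak of the wild-type (wt) Rad21 list on chromosomes 1 to 19 was called missing where it shared not even 1 bp with a peak of the germline mutant (mut) list or with a peak of the somatic knockout (somKO) list. Of 65769 autosomal Rad21 wt peaks, 3870 were missing in both genotypes, which is 5.88% of the list. The number depends on the overlap asked for, as 18018 peaks (27.4%) were missing when 50% of both peaks had to overlap and 1763 (3.44%) when all lists were kept at scores of at least 50. A further 14730 peaks were missing in mut only, 913 were missing in somKO only, and 46256 were present in both. The choice itself used the Rad21 lists, so Rad21 values below describe the sites and test nothing.

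The study compared clonal female MEF lines from a cross of FVB with castaneus mice. The wt list comes from 1 clone, Wt2A1, and the mut list from 1 clone, Mut5A6, which is homozygous for the MommeD1 null allele of SmcHD1. The allele was inherited through the germline from heterozygous parents. The somKO list is deposited under clone A3, but its label says that all replicates were merged. It was therefore read as coming from clones A3 and D4, which is not certain. In these clones SmcHD1 was disrupted by CRISPR/Cas9 after X inactivation was complete, and their parent was wt1A2, another wt clone. Autosomes of all these lines are a mosaic of FVB and castaneus segments that differs between clones, the methods describe differences in chromosome copy number between lines, and the knockout clones are triploid. Genotype and clone therefore cannot be told apart for any site. Each list was called on merged libraries, 2 for Rad21 wt, 2 for mut and, on this reading of the label, 4 for somKO. No value therefore has a replicate error, and no p-value was computed. The mut list held 64520 autosomal peaks and the somKO list 87288. Read depth is unknown because the lists hold no read counts, and fibroblast identity could not be checked on lists of cohesin peaks. Fixation differed between antibodies, as the methods describe an added cross-linker, EGS, for Rad21 and SmcHD1 but not for CTCF. Overlaps of Rad21 with CTCF therefore join lists from differently fixed chromatin, and an effect of fixation was not tested. Intervals given for shares are 95% Wilson intervals and cover counting error only.

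Cohesin is a ring-shaped complex that extrudes chromatin loops and holds sister chromatids together. It accumulates where the zinc finger protein CTCF halts extrusion at a directional motif, and also at active promoters and enhancers, where it is loaded or paused. SmcHD1 is a non-canonical SMC protein that is enriched on the inactive X chromosome and at some autosomal gene clusters.

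The sequences below show the strongest missing sites in intergenic sequence and in gene bodies, with and without a CTCF wt peak, and the strongest at a promoter, as the reference spells them. They are taken from the plus strand of the RefSeq mouse assembly GRCm38.p6 (mm10), which represents neither FVB nor castaneus, and are centred on the match to the CTCF core CCNNNAGNNGG that lies nearest the peak midpoint, or on the midpoint where the peak holds none. Capitals mark the core match.
Gm7682 intergenic, CTCF peak, chr5:94459037-94459157: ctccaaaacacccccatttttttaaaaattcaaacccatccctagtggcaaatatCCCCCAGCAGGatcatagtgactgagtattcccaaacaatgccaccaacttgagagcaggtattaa
Tpcn2 intergenic, no CTCF peak, chr7:145139072-145139192: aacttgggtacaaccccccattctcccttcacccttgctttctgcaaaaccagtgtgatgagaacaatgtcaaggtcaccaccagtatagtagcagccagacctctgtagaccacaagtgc
Gm34907 gene body, CTCF peak, chr14:103479623-103479743: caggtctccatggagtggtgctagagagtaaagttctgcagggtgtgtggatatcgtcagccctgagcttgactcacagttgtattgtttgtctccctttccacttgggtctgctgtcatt
Gm48749 gene body, no CTCF peak, chr10:9390711-9390831: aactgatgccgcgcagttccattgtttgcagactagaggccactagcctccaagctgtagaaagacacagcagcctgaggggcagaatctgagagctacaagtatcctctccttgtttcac
Hs6st3 promoter, no CTCF peak, chr14:119137764-119137884: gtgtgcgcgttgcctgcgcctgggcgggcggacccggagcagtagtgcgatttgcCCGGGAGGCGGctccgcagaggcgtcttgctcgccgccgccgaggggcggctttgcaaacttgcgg
The core letters stood in the Hs6st3 promoter, where no CTCF peak was listed, and not in the Gm34907 site, where a CTCF peak was. A match is a description of these letters and does not show binding.

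Missing sites were weak and narrow peaks of the wt list. The deposited score, a measure of the q-value of each peak, had a median of 34 at the missing sites, with quartiles of 24 and 51. Ranked within the whole Rad21 wt list of 67655 peaks, chromosome X included, their median percentile was 12.4. It was 28.7 for peaks missing in mut only, 16.1 for peaks missing in somKO only and 63.4 for peaks present in both. The median width was 295 bp at missing sites and 795 bp at peaks present in both. The wt scores were split into quintiles of rank, from lowest to highest. In the lowest quintile 2788 of 13906 peaks were missing in both genotypes (20.0%), 903 of 12590 in the second (7.17%) and 176 of 12994 in the third (1.35%). In the fourth and the highest quintiles, 2 of 13074 and 1 of 13205 were missing. In the plot of score percentiles, missing sites crowd the low end, and peaks missing in mut only spread further up.

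The number of peaks missing in both was limited mainly by the somKO list, which held more autosomal peaks (87288) than the wt list (65769). Of all autosomal Rad21 wt peaks, 28.3% were missing in mut and 7.27% in somKO. Of the 4783 peaks missing in somKO, 3870 were also missing in mut. With lists cut to equal length, 5787 of 64193 wt peaks (9.0%) were missing in both. Being missing refers to the lists alone. The median distance from a missing site to the nearest peak of either genotype was 1.73 kb, with 25% of sites closer than 0.390 kb. A peak of either genotype lay within 100 bp of 284 sites (7.34%) and within 500 bp of 1167 sites (30.2%). Just inside the limit, 148 missing sites had a neighbouring mut or somKO peak less than 50 bp away, with a median wt score percentile of 8.72 and a CTCF wt peak at 12.2%. Just outside it, 185 peaks were not counted as missing because they shared under 50 bp with such a peak, and they had the same median percentile of 8.72 and a CTCF wt peak at 10.8%. The sets on either side of the limit thus had like strength and CTCF content. Whether cohesin at a missing site was gone or only below the threshold of the list cannot be told apart.

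The strongest missing site stood far above the others. It lay in intergenic sequence at chr5:94458876-94459728, 10.6 kb from Gm7682, a predicted gene, and had a Rad21 wt score of 1184, at percentile 85.6. A CTCF wt peak at percentile 97.0 of the CTCF list covered it, CTCF was listed there in somKO and not in mut, and a somKO Rad21 peak lay 1.13 kb away. The next site, with a score of 578, lay at chr14:103479406-103479960 in an intron of Gm34907, a non-coding gene near Scel, and its CTCF peak was also listed in wt and somKO but not in mut. The site with a score of 244 at chr14:119137581-119138217 covered the region 0.442 kb upstream of the start of Hs6st3, which encodes a heparan sulphate 6-O-sulphotransferase. It had no CTCF peak in any genotype, and the nearest Rad21 peaks were 37.8 kb away in both mut and somKO. These 3 sites were the only missing sites in the 2 upper quintiles of wt score.

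The other 7 of the 10 strongest sites had scores from 198 to 216, between percentiles 56.8 and 58.5. An intron of Tbc1d4, a Rab GTPase-activating protein of insulin-regulated glucose transporter traffic, held one at chr14:101482360-101482782, where CTCF was listed in all 3 genotypes. CTCF was likewise listed in all 3 genotypes at chr7:126083487-126083899, which lay 1.28 kb upstream of Gsg1l, an auxiliary subunit of AMPA receptors, and at chr17:72589886-72590209 in an intron of Alk, a receptor tyrosine kinase. At these 3 sites the Rad21 peak was missing from both lists while the CTCF peak was present in both. The site at chr7:145138797-145139466, 47.4 kb from the endolysosomal channel gene Tpcn2, had no CTCF peak and was a near miss, as a somKO peak began 0.022 kb away. A site at chr14:106915611-106915837 had no protein-coding gene within 779.9 kb. Sites in Gm16867 at chr14:69454603-69454993 and 216 kb from the fucosyltransferase gene Fut9 at chr4:26016111-26016449 completed the list, both with a CTCF peak in wt and somKO and not in mut. Of the 10 sites, 5 lay on chromosome 14. Gm16867 overlaps the pseudogene Gm21451, and assignment of reads to either copy is uncertain.

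CTCF was listed at few of the missing sites. A CTCF wt peak overlapped 569 of 3870 (14.7%, interval 13.6 to 15.9), against 38.1% of peaks missing in mut only, 18.9% of those missing in somKO only and 69.5% of peaks present in both. The share at missing sites was below that at peaks present in both on 19 of 19 autosomes, and over autosomes it was 14.3% ± 3.83 (SD, n = 19) against 69.7% ± 3.12. Part of this gap goes with score, since CTCF-bound Rad21 peaks are stronger. Within the lowest quintile of wt score, 10.2% of missing sites had a CTCF wt peak (9.15 to 11.4), against 16.8% of peaks present in both (15.8 to 17.8) and 15.8% of those missing in mut only (14.8 to 16.7). In the second quintile the shares were 22.8% (20.2 to 25.7), 28.6% and 33.5%, and in the third 43.2% (36.1 to 50.6), 57.6% and 63.3%. The intervals of missing sites and of peaks present in both did not overlap in any of these 3 quintiles. Peaks missing in somKO only had shares close to those of missing sites in the lowest quintile, at 10.5% (8.27 to 13.3). The same held in the second, at 23.6% (18.95 to 29.02). In the third they stood above missing sites, at 66.7% (54.7 to 76.8). The low share in the lowest and the second quintile was therefore not particular to sites missing in both. Scores were not matched further within a quintile, and CTCF shares rise with score. In the lowest quintile, 741 missing sites lay in percentiles 0 to 5 and 568 in percentiles 15 to 20. Peaks present in both numbered 927 and 1730 in the same bins. Peaks present in both were wider within a quintile too, with a median of 383 bp against 291 bp in the lowest, and a wider peak meets other peaks more often. With windows of equal width around the midpoints, an alternative added after the data were seen, the shares over all scores were 14.6% and 61.8%.

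**Figure D1:**
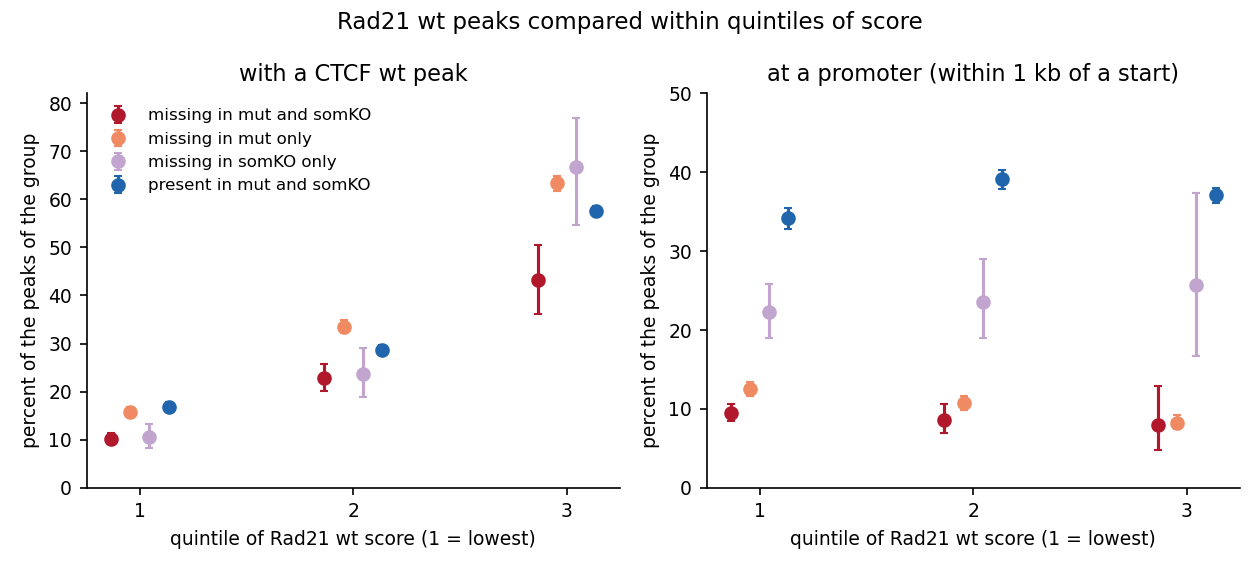
Percentage of Rad21 wt peaks with a CTCF wt peak (left) and at a promoter (right) in the lowest 3 quintiles of Rad21 wt score, by presence in mut and somKO; points are shares and bars 95% Wilson intervals. Missing sites lie below peaks present in both in each quintile, at 10.2% against 16.8% for CTCF and 9.47% against 34.2% for promoters in the lowest.

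Most CTCF-bound missing sites kept a CTCF peak in at least 1 deficient genotype. Of all autosomal CTCF wt peaks, 5.95% were missing in both mut and somKO. At the 569 missing Rad21 sites with CTCF, the CTCF peak was missing in both at 78 (13.7%, 11.1 to 16.8), in mut at 225 (39.5%) and in somKO at 93 (16.3%). At CTCF-bound Rad21 peaks present in both genotypes, the CTCF peak was missing in both at 0.597%, and at those missing in mut only at 4.45%. CTCF peaks at missing sites were weaker, with a median CTCF score percentile of 31.3 against 72.3 at Rad21 peaks present in both. Among CTCF peaks of the lowest CTCF quintile, the share missing in both was 32.0% (25.2 to 39.8) at missing Rad21 sites and 9.44% (8.09 to 10.99) at Rad21 peaks present in both. In the second CTCF quintile it was 13.6% (9.57 to 18.9) and 1.52% (1.13 to 2.05). At Rad21 peaks missing in mut only, the shares in these quintiles were 20.5% (17.8 to 23.5) and 4.93% (4.01 to 6.05), and at those missing in somKO only 10.3% (3.58 to 26.4) and 5.26% (1.81 to 14.4). Within these CTCF quintiles, CTCF calls were missing more often at missing Rad21 sites than at peaks present in both or missing in mut only. The intervals for peaks missing in somKO only overlap those of missing sites. Rad21 score was not matched, and CTCF scores still differed within a quintile. In the lowest, median CTCF percentiles were 10.1 at missing sites and 11.8 at peaks present in both. Without chromosome 14 beyond 65 Mb, a region described below, the CTCF peak was missing in both at 63 of 527 CTCF-bound missing sites (12.0%). In the upper 2 CTCF quintiles no CTCF peak was missing in both at 45 and 56 missing Rad21 sites, where the intervals reach 7.87% and 6.42%. Seen from CTCF, 78 of 3462 CTCF wt peaks missing in both lay at a missing Rad21 site (2.25%), and they made up 2.02% of the missing Rad21 sites.

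SmcHD1 itself was listed at very few of the sites. A SmcHD1 wt peak overlapped 25 of 3870 missing sites (0.646%, 0.438 to 0.952), against 2.76% of peaks present in both (2.61 to 2.91) and 1.10% of those missing in mut only (0.944 to 1.28). The share was 1.42% at peaks missing in somKO only (0.834 to 2.42) and 2.24% at all Rad21 wt peaks. At 2 of the missing sites a peak was also listed in SmcHD1 mut cells, which give the background of the antibody. The share was lower at missing sites than at peaks present in both on 17 of 19 autosomes. Within the lowest quintile of Rad21 score, the shares at missing sites and at peaks present in both were 0.646% (0.409 to 1.02) and 1.10% (0.849 to 1.43), with intervals that overlap, and in the second quintile 0.775% (0.376 to 1.59) and 2.08% (1.77 to 2.45). In the third, 0 of 176 missing sites had one (interval up to 2.14%), against 3.22% (2.88 to 3.60). Peaks missing in mut only had 0.788% (0.585 to 1.06) in the lowest quintile and 1.22% (0.940 to 1.57) in the second. Their intervals overlap those of missing sites. A SmcHD1 wt peak lay within 10 kb of 4.24% of missing sites, 5.43% of peaks missing in mut only, 6.12% of peaks present in both and 5.84% of all Rad21 wt peaks. Within the lowest quintile this share was 4.52% (3.81 to 5.36) at missing sites and 5.92% (5.30 to 6.60) at peaks present in both, with intervals that overlap slightly.

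The strongest missing sites with SmcHD1 had Rad21 wt scores from 61 to 89. The first, at chr8:123593078-123593332, lay in Gm20388, a predicted gene model of 4435 kb that spans many other genes, and beside a small RNA gene. The second lay at chr5:144474931-144475230, 28.3 kb from Bri3. An intron of Rasgef1b, a guanine nucleotide exchange factor, held another at chr5:99387754-99388714, and none of these had a CTCF peak in any genotype. A further site, at chr6:114619212-114619466, lay 23.8 kb from Atg7, which encodes the E1-like enzyme of autophagy. Singled out after the values were seen, 5 of the 25 sites lay between Hrh1 and Atg7, from chr6:114532823-114533199 to the site just named. Chromosome 8 had the highest share, 6.58% of its missing sites, and 3 of these were in Gm20388. These 3 lay between chr8:123567543 and chr8:123618815, with midpoints 0.065 kb or less from an annotated gene start. The site at chr8:123567543-123567837 was at the 5S rRNA gene copy n-R5s117, where reads of repeated copies cannot be placed with certainty. Whether the same limit holds for the others was not checked.

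Missing sites were seldom at promoters. The midpoint of 357 sites lay within 1 kb of an annotated gene start (9.22%, 8.35 to 10.2), against 28.2% of peaks present in both (27.8 to 28.6), 10.5% of those missing in mut only and 22.9% of those missing in somKO only. On 19 of 19 autosomes the promoter share was lower at missing sites than at peaks present in both. Introns held 46.2% of the sites against 35.4%, exons outside promoters 4.70% against 4.06%, and intergenic sequence 39.8% (38.3 to 41.4) against 32.3%. The median distance to the nearest gene start was 10.5 kb at missing sites and 5.07 kb at peaks present in both. The promoter deficit was also seen within the lowest 3 quintiles of score, at 9.47% against 34.2% in the lowest, 8.64% against 39.1% in the second and 7.95% against 37.1% in the third, while of the 2 missing sites of the fourth quintile 1, at Hs6st3, was at a promoter. Peaks missing in mut only were close to missing sites in this respect, at 12.5%, 10.7% and 8.27% in the same quintiles. The median distance to the nearest peak present in both was 6.44 kb for missing sites, and 6.69 kb from one peak present in both to the next, so the values for crowding were close.

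Missing sites were poorer in CpG and in promoter motifs than peaks present in both. Over a window of equal width around the midpoint, the median GC content was 44.9% at missing sites, 45.2% at peaks missing in mut only and 47.5% at peaks present in both. The median number of CpG dinucleotides in the window was 3, 3 and 4 and the mean 3.77, 3.65 and 7.75, and the median share of repeat-masked bases 12.96%, 15.3% and 9.30%. Motifs were searched on both strands in the same window. The GC box GGGCGG occurred at 6.02% of missing sites against 15.0% of peaks present in both, and the ETS motif CCGGAAG at 1.55% against 2.97%. Both are common in CpG-rich promoters, with 35.7% and 8.86% of RefSeq promoters of 300 bases holding them. The AP-1 motif TGANTCA, bound by Fos and Jun dimers at fibroblast enhancers, occurred at 23.2% of missing sites, 21.6% of peaks missing in mut only, 13.2% of peaks present in both and 7.81% of RefSeq promoters.

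Within quintiles of score, the AP-1 difference was smaller in the lowest and the second, and the GC box difference remained. Scores were not matched further within a quintile. In the lowest quintile the AP-1 share was 22.1% (20.6 to 23.6) at missing sites and 19.3% (18.2 to 20.4) at peaks present in both, and in the second 26.5% (23.7 to 29.4) and 20.6% (19.6 to 21.5). In the third quintile the gap was wider, at 23.9% (18.2 to 30.7) and 15.1% (14.4 to 15.8). The RUNX motif TGTGGTT was more frequent at missing sites, at 12.9% (11.8 to 14.2) against 9.002% (8.25 to 9.82) in the lowest quintile and 19.5% (17.0 to 22.2) against 11.4% (10.7 to 12.2) in the second. In the third quintile the RUNX intervals overlap, at 14.8% (10.3 to 20.8) and 12.0% (11.3 to 12.6). The TEAD motif GGAATG was alike, at 17.7% and 17.9% in the lowest quintile. The GC box stood at 5.77% against 15.8% there. The cyclic AMP response element TGACGTCA was rare, at 0.233% of missing sites, 0.383% of peaks present in both and 1.79% of promoters. The CTCF core was found at 27.6% of all missing sites, 39.2% of peaks present in both, 38.0% of all Rad21 wt peaks and 24.0% of promoters. This deficit over all scores was not seen within quintiles. The shares were 22.4% (20.9 to 24.0) and 23.6% (22.5 to 24.8) in the lowest quintile. In the second the core was more frequent at missing sites, at 39.2% (36.1 to 42.4) against 31.2% (30.1 to 32.3). In the third the intervals overlap, at 50.0% (42.7 to 57.3) and 44.7% (43.7 to 45.7). Among peaks with a CTCF wt peak, it was found at 60.5% of missing sites (56.4 to 64.4) and at 46.5% of peaks present in both (46.0 to 47.1). Peaks present in both were wider, with a median of 795 bp against 295 bp at missing sites over all scores. In the second quintile the medians were 526 bp and 300 bp. The search window had a fixed width, so motifs far from the midpoint of a wide peak were not counted. All these motif shares therefore describe sequence near the midpoint, and shares over whole peaks were not compared. Peaks missing in mut only gave nearly the same motif shares as missing sites in the lowest and the second quintile.

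**Figure D2:**
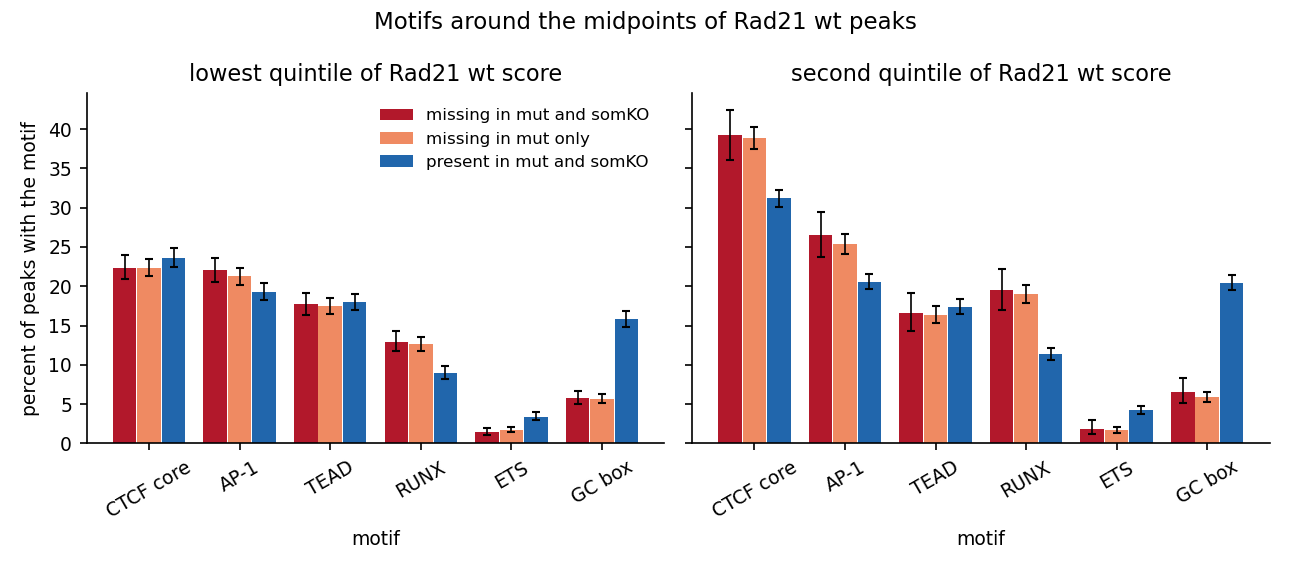
Percentage of Rad21 wt peaks with each motif in a window of equal width around the midpoint, in the lowest and the second quintile of Rad21 wt score, with 95% Wilson intervals. Missing sites and peaks missing in mut only have the same height within a few points, and both hold fewer GC boxes and more RUNX motifs than peaks present in both, at 12.9% against 9.002% for RUNX in the lowest quintile.

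Missing sites were spread over all autosomes, with 1 region that stood apart. The share of Rad21 wt peaks missing in both was 5.92% ± 2.28 over autosomes (SD, n = 19), from 2.28% on chromosome 8 to 13.6% on chromosome 14, and the next highest was 7.60% on chromosome 13. On chromosome 14 the excess lay beyond 65 Mb, a border placed after the data were seen, where 247 of 862 Rad21 wt peaks were missing (28.7%, 25.7 to 31.8), against 65 of 1431 before it (4.54%, 3.58 to 5.75). Of CTCF wt peaks, 19.8% were missing in both beyond the border (17.0 to 22.9) and 4.61% before it. The lists as a whole were short there. Beyond the border the mut list held 311 Rad21 peaks, 36.1% of the wt number, and the somKO list 692, 80.3% of it, whereas on the other 18 autosomes the mut list had 98.7% and the somKO list 133% of the wt number. For CTCF the figures were 46.7% and 84.0% beyond the border and 96.7% and 116% on the other autosomes. Missing calls and short lists thus went together in this region for both antibodies. Without the region 3623 missing sites remained, and the share of wt peaks was 5.58%.

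**Figure D3:**
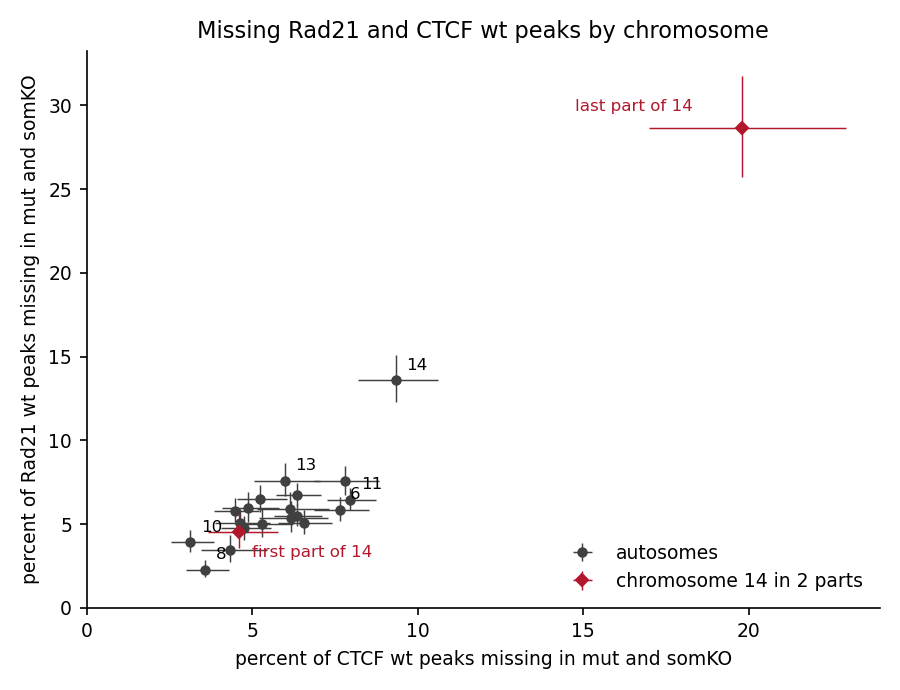
Percentage of Rad21 wt peaks (y axis) against percentage of CTCF wt peaks (x axis) missing in both mut and somKO, 1 point for each of 19 autosomes, with chromosome 14 also shown in 2 parts; bars are 95% Wilson intervals. The last part of chromosome 14 stands apart at 28.7% and 19.8%, and the first part lies among the other autosomes at 4.54% and 4.61%.

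Within the last part of chromosome 14, stronger peaks were missing too. Of its Rad21 wt peaks in the lowest quintile of score 75.6% were missing (68.8 to 81.3), in the second 50.7% and in the third 22.4%, against 19.3%, 6.70% and 1.08% on the other 18 autosomes. The median score percentile of missing sites was 19.9 there and 12.4 in the rest of the autosomes. The region held 13 SmcHD1 wt peaks beside its 862 Rad21 wt peaks, and the other autosomes held 5002 beside 63476. A CTCF wt peak lay at 17.0% of its missing sites, against 14.5% elsewhere. Across the 19 autosomes the missing shares of Rad21 and CTCF had a Pearson r of 0.774 and a Spearman rho of 0.672, and 0.695 and 0.614 without chromosome 14 (n = 18). This is a description, since the chromosomes share the same clones and libraries.

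**Figure D4:**
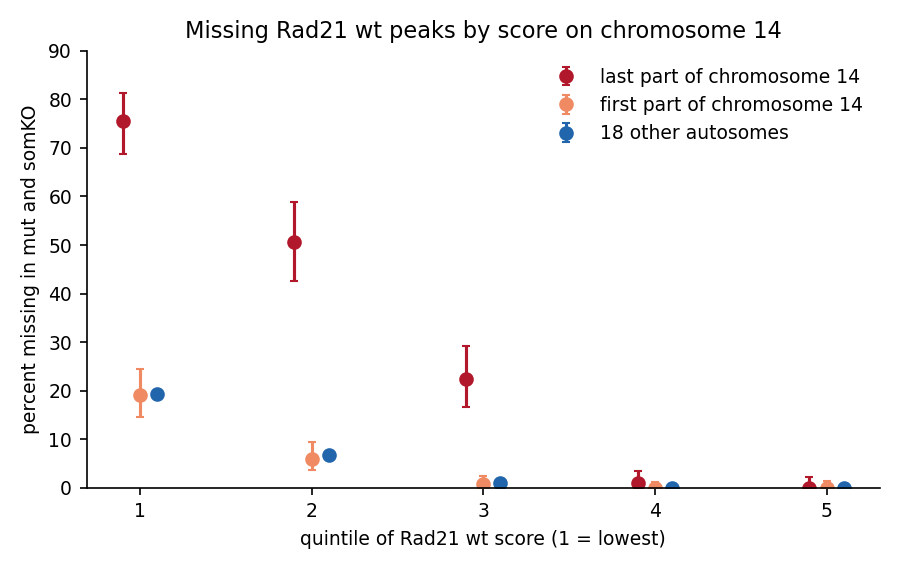
Percentage of Rad21 wt peaks missing in both mut and somKO by quintile of Rad21 wt score, for chromosome 14 beyond and before 65 Mb and for the 18 other autosomes; bars are 95% Wilson intervals. The last part of chromosome 14 lies above the rest in the lowest 3 quintiles, at 75.6%, 50.7% and 22.4%.

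Chromosomes were also cut into windows of 5 Mb, of which 488 had 20 or more Rad21 wt peaks, with a median missing share of 5.25%, a 10th percentile of 1.92% and a 90th percentile of 10.4%. The highest shares were at 105 to 110 Mb of chromosome 14 with 17 of 39 peaks (43.6%), at 95 to 100 Mb with 14 of 38 (36.8%) and at 115 to 120 Mb with 17 of 48 (35.4%). The most missing sites in number were in the windows of chromosome 14 that start at 65, 75 and 70 Mb, with 51, 49 and 34, and the window of chromosome 4 that starts at 55 Mb also held 34, among 322 peaks. Outside the last part of chromosome 14, 2 of 479 windows were above 15%: the first 5 Mb of chromosome 1 with 6 of 23 peaks and 15 to 20 Mb of chromosome 15 with 6 of 34. Of the missing sites, 3090 (79.8%) had no missing site as next neighbour in the wt list, while 304 runs had 2, 38 had 3 and 8 had 4. A random order would also leave most sites without such a neighbour, as 5.88% of wt peaks were missing, and no such comparison was run. The longest run had 6 neighbouring missing sites at chr14:99373560-99633121. Runs of 5 included chr14:121059381-121229351, within Farp1, and chr14:105733402-105892163, and all 5 runs of 5 or more were on the last part of chromosome 14.

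Of 12648 autosomal protein-coding genes with a Rad21 wt peak in the body, 1504 held a missing site, 1179 of them just 1 and 105 of them 3 or more. Alk had the most, with 10 of its 26 Rad21 wt peaks missing (38.5%), and 1 of the 10 had a CTCF wt peak. Gm20388 and Fgfr2 had 9 each, in annotated models of 4435 kb and 2961 kb that span other genes, where they made up 2.64% of 341 and 8.26% of 109 wt peaks. Myo10, the myosin of filopodia, had 7 of 27 missing. Elmo1, which acts with Dock proteins on the GTPase Rac, had 6 of 28, and Phldb2, which anchors microtubules at the cell cortex, 6 of 23. Gm16867 on the last part of chromosome 14 had 6 of 14. The Alk site of score 216 was the strongest in any of these genes, whereas the strongest missing sites of Myo10 and Phldb2 both had a score of 64.

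Gene groups were compared by the share of Rad21 wt peaks in the gene or within 5 kb of it that were missing, which was 5.20% for all protein-coding genes (2246 of 43191). Genes of transforming growth factor beta (TGF-beta) and BMP signalling, which controls matrix production in fibroblasts, had 25 of 258 missing (9.69%, 6.65 to 13.9), at 11 of 41 genes with a wt peak. The median score percentile of the group's wt peaks was 43.8, below the 49.8 of all peaks, and missing shares rise as scores fall. The co-receptor gene Tgfbr3 had 6 of 29 missing, the type II receptor gene Tgfbr2 3 of 6, the ubiquitin ligase gene Smurf1 3 of 13 and the latent TGF-beta binding protein gene Ltbp2 3 of 15. The strongest of these was a site of score 106 at Smurf1. At Tgfbr2 the strongest missing site had a score of 34 and none in the gene had CTCF.

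Genes of the fibroblast matrix had 18 of 218 missing (8.26%, 5.29 to 12.7), at 13 of 33 genes. Examples are Loxl2, a collagen-crosslinking oxidase on the last part of chromosome 14, with 2 of 11, Col3a1 with 2 of 8, the gelatinase gene Mmp2 with 2 of 8 and the fibrillin gene Fbn2 with 2 of 5. The Loxl2 site of score 146 was the strongest, and 1 of the 18 sites had a CTCF wt peak. Mesenchymal transcription factor genes had 17 of 201 missing (8.46%, 5.35 to 13.1), none with CTCF, at 11 of 35 genes that included Ebf2, also on the last part of chromosome 14, with 2 of 6, Runx1 with 2 of 16 and Zeb1 with 2 of 7. The intervals of these 3 groups start at 5.29% or higher, just above the 5.20% of all protein-coding genes. They cover counting error only, the shares come from the rule itself, and the groups were chosen with earlier results known. The intervals are therefore no test of enrichment in any group. Without the last part of chromosome 14, an alternative added after the data were seen, the TGF-beta and BMP group kept its values, while matrix genes had 16 of 207 (7.73%, 4.81 to 12.2) and transcription factor genes 15 of 195 (7.69%, 4.72 to 12.3), with intervals that include the 4.97% of all protein-coding genes there. The wt score medians of the matrix and transcription factor groups were at percentiles 41.1 and 42.3, and scores were not matched between groups.

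Genes of cohesin and the loop machinery had 0 of 74 missing, with an interval up to 4.93%, at 24 genes, and 0 of 72 with an interval up to 5.07% without the last part of chromosome 14. Clustered protocadherins, whose promoters are chosen by CTCF and cohesin and which are known targets of SmcHD1, had 1 of 33 missing (3.03%). That site had a score of 28, lay between the starts of Pcdhgc4 and Pcdhgc5 and was therefore counted at 22 overlapping gamma genes, Pcdhga1, Pcdhga2, Pcdhga3 and Pcdhgb1 among them. Hox genes had 2 of 68 (2.94%), both with a score of 39 and beside Hoxd10 and Hoxd8, near Hoxd9 and Hoxd3. Imprinted genes had 5 of 111 (4.50%), at Airn with a score of 171, Dlk1 with 84, Trappc9 with 34, Gnas with 20 and Ppp1r9a with 14. AP-1 and growth-response genes had 1 of 46 (2.17%), at Egr3 on the last part of chromosome 14. The intervals of the last 4 groups include the 5.20% of all protein-coding genes.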

How the data were processed

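Peak lists of SmcHD1, CTCF and Rad21 were analysed, 8 in all. Per the study's methods, the authors aligned reads with Bowtie2 to a strain-masked mm10 genome and called narrow peaks with MACS2 at a q-value below 0.05, on reads of both alleles and merged replicates. The MACS2 version and the use of inputs are not given in the sources used here. The somKO lists are deposited under clone A3, and their label says that all replicates were merged, which was read as both clones. The deposited score of each peak, whole-numbered with a minimum of 13 in each list, was taken for the whole part of -log10 of q, multiplied by 10, and was used to rank peaks within a list.

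Overlaps of at least 1 bp were computed in Python 3.11.15 with pandas 2.3.3 and numpy 2.4.6 and checked on simulated lists. Score quintiles are cut at every 20th percentile of a whole list, chromosome X included, so they hold unequal numbers of autosomal peaks. Genes came from GENCODE M21 and sequence from RefSeq GRCm38.p6, both of the build of the lists. A peak was assigned by its midpoint to promoter (within 1 kb of a start), exon, intron or intergenic. Motif windows were 301 bases, printed sequences 121 bases. Named are the 10 strongest missing sites, the 5 strongest with a SmcHD1 wt peak, up to 8 genes with the most missing sites, 3 windows by share and by number, the 3 longest runs and up to 4 genes a group; the fifth imprinted gene is named because it completes a count. A few genes this rule names are not reported here. The missing sites and gene groups were chosen with earlier results of these data known. Alternatives changed the overlap, the distance that counts as missing, the score minimum, list length and promoter definition. H3K27me3 and input libraries were not used here. Sites on chromosome X were not examined, though its peaks counted in the score ranks.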

Additional observations from a re-analysis of the deposited data

How the results depend on the processing

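Of 34 alternative values, 21 stayed within the limits set for the value reported (a count within 1.5 times, a share within its interval) and 13 moved. In 17 of 17 comparisons, the CTCF, SmcHD1 and promoter shares of missing sites were below those of peaks present in both. Requiring 50% of both peaks to overlap gave 18018 missing sites with a median score percentile of 19.9. Scores of at least 50 in all lists gave 1763 missing sites, a CTCF share of 20.5%, a promoter share of 10.6% and a CTCF peak missing in both at 11.05% of CTCF-bound sites. Lists cut to equal length gave 5787 missing sites, just within the limit for a count. The shares were then 13.1% for CTCF and 18.8% for the CTCF peaks missing in both. Requiring no mut or somKO peak within 500 bp gave a CTCF share of 16.5% and a median percentile of 14.8. Promoters of 2.5 kb on either side gave 19.8%, and protein-coding genes alone gave a promoter share of 6.61% and an intergenic share of 48.8%. For these moves the cause was not tested. Leaving out chromosome 14 beyond 65 Mb, and windows of equal width, were chosen after seeing the data and moved none of these values out of their limits. No paired analysis was possible because each list merges the replicates of its group, and for the same reason no replicate could be left out. The lists give no depth, so that weak sites missing in a shorter list cannot be told apart from sites without cohesin.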
